A study of Drosophila melanogaster with 24 samples.

Results

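The transcriptome of heads from 55 day old Drosophila melanogaster females was compared between dawn and dusk. The dawn side consisted of 4 old libraries, 2 collected at ZT20 and 2 at ZT0, and the dusk side of 4 old libraries, 2 at ZT8 and 2 at ZT12, where zeitgeber time (ZT) counts hours from lights-on. These 8 libraries were chosen by their labelled age and time of day among the 24 RNA-seq libraries of the series. The rule used labels only, but the comparison was set with earlier results of these data known. All flies were w1118 females kept in cycles of 12 h light and 12 h dark on the same diet, with no transgene and no treatment. The w1118 allele removes the function of white, so the eyes of all groups lack their screening pigment. The 8 young libraries of the same times, from 5 day old females, served as the age control. Each library was made from the pooled heads of many flies, so it averages over individuals and over the brain, the compound eyes, the fat body and the muscle of the head. In such bulk samples fewer cells of a type and less RNA per cell cannot be told apart. The deposited values carry no replicate number, so the 2 libraries of a time point are named here by their daily cycle, the first holding hours 0 to 20 and the second hours 24 to 44. Per the study, 2 biological replicates were collected over a single daily cycle, so a cycle here means a replicate and not a second day.

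The fly clock is a transcriptional feedback loop. CLOCK and CYCLE activate period (per) and timeless (tim) in the second part of the day, the PER and TIM proteins accumulate at night and repress their own transcription, and a second loop through vrille (vri) and Pdp1 drives Clock (Clk) in the opposite phase. In the head most clock-bearing cells are photoreceptors and glia, and many genes of vision and metabolism follow the clock or the light itself. Under a light-dark cycle these drives cannot be told apart, because light and clock time move together.

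Expression is given as FPKM, a read density corrected for transcript length and for sequencing depth. Every old library was divided by its median ratio to the mean of the 12 old libraries. Young libraries were scaled in the same way among themselves. In old heads the scale factor moved with the time of day. On the log2 scale it was 0.11 and 0.10 at ZT0, −0.0017 and −0.0029 at ZT20, −0.01 and −0.02 at ZT8, and −0.08 and −0.08 at ZT12. The dawn mean exceeded the dusk mean by 0.10. Without scaling, the median gene was 0.09 log2 units higher at dawn, compared with 0.0040 after scaling, and all differences below are relative to the scaled median. A principal component analysis placed the ZT0 libraries at −35.2 and −30.9 and the ZT20 libraries at 19.1 and 25.7 on the first component, which held 33.0% of the variance. Dawn and dusk were separated on the second component, which held 21.04% of the variance. The dawn side was thus the more varied one, with a median absolute difference of 0.19 log2 units between ZT20 and ZT0 compared with 0.11 between ZT8 and ZT12. Markers of neurons, glia, photoreceptors, fat body, muscle and hemocytes were present in all 8 libraries, whereas those of ovary and midgut were at or below 1 FPKM on average. Summed fat body markers (5 measured of 6) ranged from 6553 to 8397 FPKM at dawn and from 8387 to 10790 at dusk. Summed photoreceptor markers (6 of 6) ranged from 12195 to 16397 at dawn and from 15719 to 17571 at dusk. Summed neuron markers ranged from 873 to 1013 at dawn and from 974 to 1237 at dusk. Summed glia markers ranged from 1425 to 2401 and from 1850 to 2109. These sums mostly follow their most abundant members, with means of 6148 FPKM for Yp1 in fat body and 10995.5 for ninaE in photoreceptors. None of the 7 neuron, 7 glia, 5 fat body, 7 muscle or 5 hemocyte markers was called below. Of the 6 photoreceptor markers, 2, chp and inaD, were called in the direction of dawn, beside 4.85% of all genes called in either direction. The part of cell composition in the results was not tested.

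Of 9609 genes with a mean of at least 1 FPKM, 466 (4.85%) differed between dawn and dusk at an adjusted p of at most 0.05, and these are the genes called here (limma on log2(scaled FPKM + 1), two-sided, Benjamini-Hochberg adjustment over all genes tested). A fold change on this scale understates the change of low genes. Of the called genes, 226 (2.35%) were higher at dawn and 240 (2.50%) at dusk, and 178 (1.85%) differed by at least 1.5-fold. All 4 libraries of one side lay above all 4 of the other in 1383 genes (14.4%), 670 higher at dawn (6.97%) and 713 higher at dusk (7.42%). Without scaling the split of called genes was 444 at dawn and 146 at dusk. The number called was sensitive to single libraries. It was 157 without the second-cycle ZT12 library and 220 without the first-cycle one, 182 and 189 without the second-cycle and first-cycle ZT8 libraries, 220 without the second-cycle ZT0 library and 246 without the first-cycle ZT20 library. Between 465 and 466 of the 466 genes kept their sign whichever library was left out. Their selection from these same libraries nearly fixed that in advance, so it is no test of direction. Where a gene named below lost its call when a single library was left out, the largest adjusted p of those 8 fits is given. Of 96 called genes named here, 46 lost the call in at least 1 such fit, and the largest p came from leaving out the second-cycle ZT12 library in 23 of them, the second-cycle ZT8 library in 12, the first-cycle ZT8 library in 6, the second-cycle ZT0 library in 3 and the first-cycle ZT12 library in 2. Per the study, each daily cycle is a biological replicate of its own. The p-values measure the spread of libraries within a side, which holds both replicate scatter and the change between its 2 time points. Given a separate mean for each time point, these 8 libraries gave 1357 calls instead of 466. A missing or lost call is therefore not by itself a sign of poor replication. The lane of each time point was not given, and lane and time of day cannot be told apart.

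Among the 8 core clock genes, 5 were called in old heads, 4 of them higher at dusk and 1 higher at dawn, beside 2.50% and 2.35% of all genes. The negative-limb gene per (chromosome X, 2685580 to 2692780, BDGP6) was at 4.08 and 3.49 FPKM at ZT20, 3.18 and 2.22 at ZT0, 15.1 and 13.6 at ZT8 and 15.3 and 17.6 at ZT12. The dawn mean of 3.24 ± 0.78 FPKM (SD, n = 4) compared with 15.4 ± 1.67 (SD, n = 4) at dusk, a log2 difference of −1.97 ± 0.14 (SE, adjusted p = 0.000302) that held in all 8 fits with a library left out. The repressor gene vri was at 85.2 and 70.2 FPKM at ZT20, 32.3 and 40.1 at ZT0, 112 and 118 at ZT8, and 188 and 177 at ZT12, a log2 difference of −1.44 ± 0.32 (adjusted p = 0.0419). The sides did not overlap but were spread widely, with ZT20 above ZT0 and ZT12 above ZT8. Its call was lost in 6 of the 8 left-out fits, up to an adjusted p of 0.12 without the second-cycle ZT12 library.

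The activator Clk (chromosome arm 3L, 7763233 to 7775603) ran the other way, at 53.6 and 48.1 FPKM at ZT20, 35.8 and 44.9 at ZT0, 25.3 and 25.9 at ZT8, and 15.3 and 15.9 at ZT12. Every dawn library lay above every dusk library, with a log2 difference of 1.13 ± 0.20 (adjusted p = 0.0183, up to 0.0565 without the second-cycle ZT12 library). Pdp1, which encodes the activator of Clk, was at 188 to 264 FPKM at dawn and 311 to 378 at dusk (log2 −0.61, adjusted p = 0.0247, up to 0.0787), and clockwork orange (cwo), a repressor of CLOCK targets, at 11.3 to 15.1 and 18.01 to 21.8 (log2 −0.52, adjusted p = 0.023, up to 0.0702). In both genes the sides did not overlap.

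The remaining clock genes were not called. The partner of per in the repressor complex, tim, was at 106 and 107 FPKM at ZT20, 48.4 and 50.4 at ZT0, 135 and 136 at ZT8, and 187 and 176 at ZT12. Its sides did not overlap, but the ZT20 libraries were about midway between ZT0 and ZT12. The log2 difference of −1.10 ± 0.29 gave an adjusted p of 0.0703. In 13 other settings of the limma fit tim was called in 3, with adjusted p from 1.1e-05 to 0.331. Where each time point of the 8 libraries had its own mean, all 5 core clock genes with negative differences were called, tim among them. The CLOCK partner cyc, which is not known to cycle strongly, was at 9.35 to 11.9 FPKM at dawn and 8.30 to 8.75 at dusk (log2 0.23, adjusted p = 0.146). The blue-light photoreceptor gene cryptochrome (cry) overlapped between the sides (log2 0.18, adjusted p = 0.736), with 60.1 and 68.5 FPKM at ZT0, 37.6 and 38.8 at ZT20, 55.4 in both ZT8 libraries, and 31.998 and 36.8 at ZT12. Its contrast of high and low hours therefore ran across the 2 sides rather than between them, as the plot of clock genes through the day shows. By whole gene spans, per overlaps dyw, tim and vri each overlap a noncoding gene and cry overlaps vib on the other strand. On their own strand Clk overlaps CG32371, cry a noncoding gene and tim a small nucleolar RNA gene. The use of strand in counting was not stated for these data, so reads of such pairs cannot be told apart here.

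**Figure D1:**
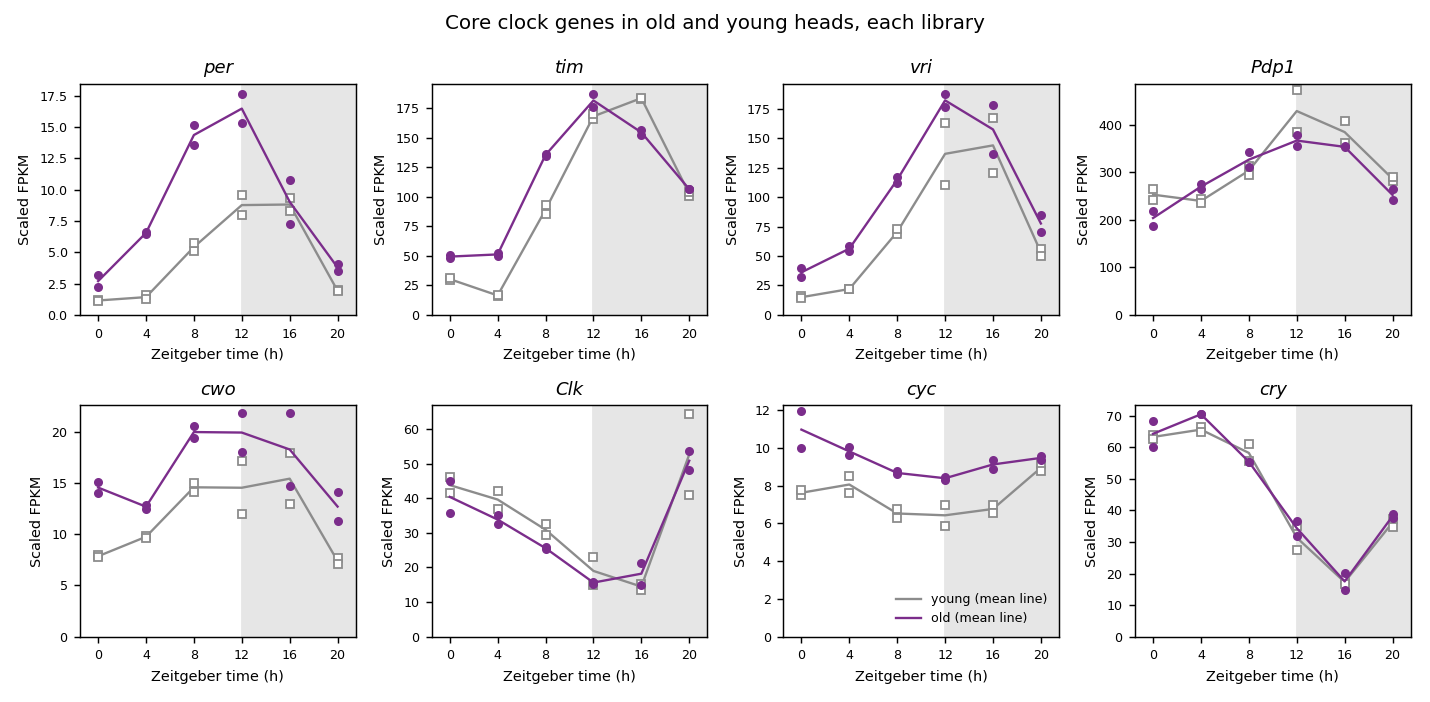
Scaled FPKM of the 8 core clock genes against zeitgeber time in hours, with old libraries as filled circles, young libraries as open squares, lines through the mean of 2 libraries and grey shading for darkness; old and young tables were normalised separately. In old heads per was at 2.22 to 4.08 FPKM at dawn and 13.6 to 17.6 at dusk while Clk was at 35.8 to 53.6 at dawn and 15.3 to 25.9 at dusk.

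None of the 11 tested kinases, phosphatases and degradation factors that act on the clock proteins was called, beside 4.85% of all genes, a share at which a list of this length can hold no call. Their log2 differences ran from −0.47 to 0.04 (median −0.05, compared with 0.0040 over all genes). The most abundant, microtubule star (mts), the catalytic subunit of protein phosphatase 2A, was at 256 to 325 FPKM at dawn and 288 to 308 at dusk (log2 −0.10, adjusted p = 0.579). Nemo (nmo), a kinase of PER, had the lowest value of the list at −0.47 (adjusted p = 0.0707). Its sides did not overlap, nor did those of twins (tws), a regulatory subunit of protein phosphatase 2A (log2 −0.26, adjusted p = 0.142), both with dusk higher.

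The genes with the largest differences were mostly genes of little described function. CG17386, now named Achl (chromosome arm 2R, 14420324 to 14424764), was at 33.7 and 33.9 FPKM at ZT20, 29.4 and 33.2 at ZT0, 1.42 and 1.26 at ZT8, and 2.195 and 2.59 at ZT12. The lowest dawn library was above 29 FPKM and the highest dusk library below 3, a log2 difference of 3.57 ± 0.15 (adjusted p = 3.39e-05). CG34134 was at 78.7 and 65.2 FPKM at ZT20, higher at ZT0 with 128 and 121, and at 12.7 to 19.1 at dusk (log2 2.52, adjusted p = 0.00094). CG11891 was at 25.5 to 45.3 and 7.59 to 13.8 FPKM (log2 1.77, adjusted p = 0.00397), and CG4842 at 60.6 to 90.9 and 26.02 to 37.1 (log2 1.36, adjusted p = 0.00246). CG17108 was at 360 and 392 FPKM at ZT20 but at 189 and 200 at ZT0, compared with 77.2 to 145 at dusk (log2 1.34, adjusted p = 0.049, up to 0.127 without the second-cycle ZT8 library). Its dawn level was thus mostly a ZT20 level.

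Noncoding transcripts stood among the 12 largest dawn differences. CR45894 (chromosome arm 3L, 16353498 to 16353916) lies within the span of Pdh, the photoreceptor dehydrogenase gene, on the other strand, and was at 16.0 to 24.7 FPKM at dawn and 1.73 to 3.49 at dusk (log2 2.58, adjusted p = 0.000272). CR44121 and CR44120 are neighbours on chromosome arm 2L, 130 bases apart. They lie between SLC5A11 and CG8419, called in the same direction, with gaps of 235 and 127 bases. Reads that run across such close neighbours could be counted to either. CR44121 was at 24.4 to 41.1 and 2.34 to 7.94 FPKM (log2 2.53, adjusted p = 0.00307), and CR44120 at 3.99 to 17.6 and 0.49 to 2.23 (log2 1.97, adjusted p = 0.0417, up to 0.108 without the first-cycle ZT8 library). CG32553, annotated now as a noncoding gene, was at 6.76 to 10.8 FPKM at dawn and 1.86 to 2.75 at dusk (log2 1.43, adjusted p = 0.00185). The short gene CG43965, which overlaps CG6511 on the other strand, was at 9.67 to 12.4 and 0.75 to 2.202 FPKM (log2 2.48, adjusted p = 0.00042). Outside the compared times its 2 libraries at ZT4 read 10.8 and 0 FPKM, so its replicates did not always agree.

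Dawn genes of known function completed that group. Ugt35b, a UDP-glycosyltransferase that conjugates small lipophilic molecules, was at 63.5 and 66.0 FPKM at ZT20, 78.0 and 91.9 at ZT0, 32.7 and 29.2 at ZT8, and 17.2 and 20.1 at ZT12 (log2 1.59 ± 0.21, adjusted p = 0.00634). The scaffold gene inaD is described with the vision genes below.

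Neighbouring genes were also among the largest differences at dusk. The noncoding genes CR45456 and CR45457 and the coding genes CG17005 and Cks30A follow one another on the same strand of chromosome arm 2L between 9325845 and 9331981, with gaps of 318, 191 and 431 bases. CR45457 was at 6.45 and 5.61 FPKM at ZT20, 3.39 and 5.70 at ZT0, 57.4 and 74.9 at ZT8, and 42.5 and 44.8 at ZT12 (log2 −3.14 ± 0.21, adjusted p = 0.000268). CR45456 was at 1.35 to 2.27 FPKM at dawn and 16.2 to 34.6 at dusk (log2 −3.05, adjusted p = 0.000684), and CG17005 at 1.45 to 2.71 and 13.2 to 27.1 (log2 −2.76, adjusted p = 0.0011). Cks30A, a cyclin-dependent kinase subunit, was named after its values were seen, with 0.25 to 1.03 FPKM at dawn and 3.87 to 8.05 at dusk (log2 −2.15, adjusted p = 0.00317). All of them were highest at ZT8 rather than ZT12, and their ZT4 libraries were close to the dusk level, at 47.3 and 54.8 FPKM for CR45457. Reads that run across such close neighbours could be counted to either, so these genes are not independent observations.

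The other dusk genes were coding genes elsewhere. Usp8, a ubiquitin-specific protease, was at 22.1 and 18.5 FPKM at ZT20, 23.3 and 20.98 at ZT0, 75.3 and 72.0 at ZT8, and 83.2 and 74.3 at ZT12 (log2 −1.80 ± 0.08, adjusted p = 4.59e-05). Its standard error was the smallest among the 24 genes with the largest differences. CG34301 was at 1.40 to 2.69 and 11.8 to 18.2 FPKM (log2 −2.29, adjusted p = 0.00042), CG15784 at 233 to 353 and 768 to 1210 (log2 −1.72, adjusted p = 0.00216), and CG2121 at 8.32 to 13.9 and 31.3 to 38.3 (log2 −1.46, adjusted p = 0.00189). The remaining dusk genes of this size, Hr38, Hsp22 and ImpL3, belong to groups described below.

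**Figure D2:**
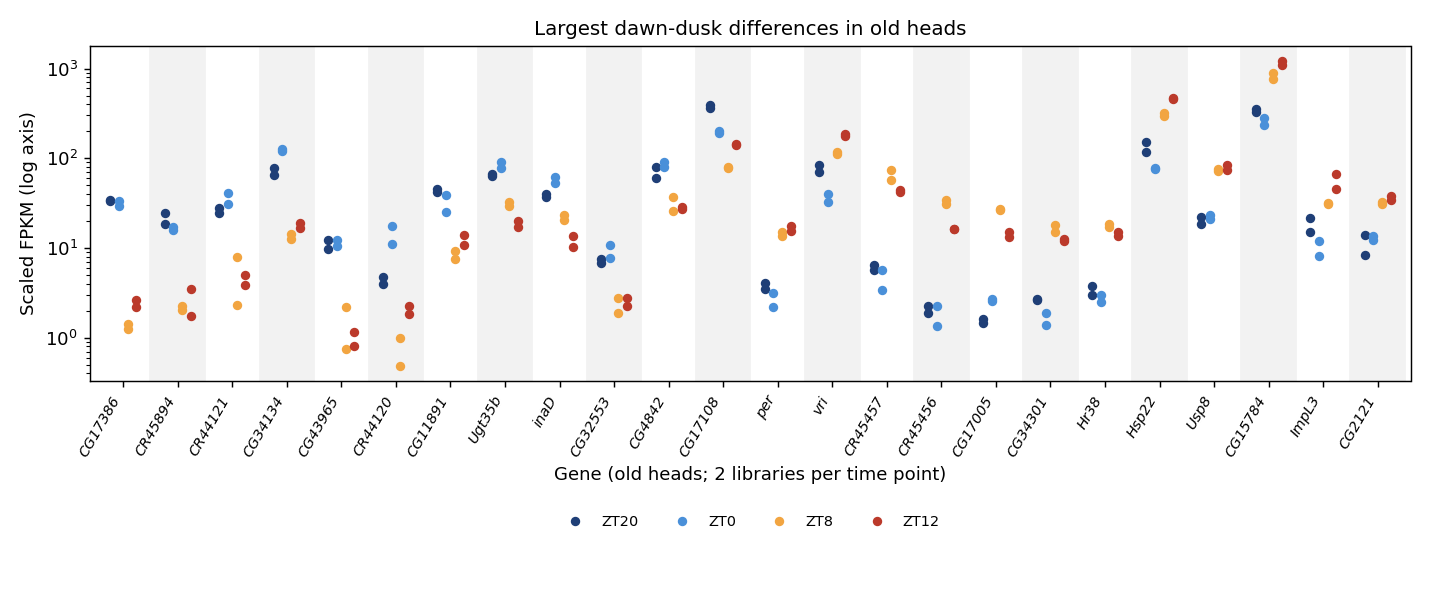
Scaled FPKM on a log axis of the 12 genes with the largest dawn-higher and the 12 with the largest dusk-higher differences, one point per old library, coloured by zeitgeber time. In each of the 24 genes the 4 dawn points (blue) and the 4 dusk points (orange and red) do not overlap, which the rule for showing them required.

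Vision genes changed in both directions, more of them toward dawn. In the fly eye, rhodopsin activates a Gq protein, phospholipase C is engaged, and the TRP and TRPL channels open. Of 42 phototransduction genes tested, 11 were called higher at dawn and 4 higher at dusk, beside 2.35% and 2.50% of all genes, and the list's median log2 difference was 0.13.

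The dawn calls included scaffold, G protein and rhabdomere genes. The PDZ scaffold inaD (chromosome arm 2R, 22855688 to 22858794), which holds the signalling complex together, was at 36.6 and 39.5 FPKM at ZT20, 61.1 and 53.3 at ZT0, 23.1 and 20.7 at ZT8, and 10.1 and 13.4 at ZT12. The sides did not overlap and the log2 difference was 1.48 ± 0.26 (adjusted p = 0.0201, up to 0.0638 without the second-cycle ZT12 library). By span inaD overlaps RpL23 on the other strand. The eye-specific G protein beta subunit Gbeta76C was at 167 to 231 FPKM at dawn and 79.3 to 106 at dusk (log2 1.08, adjusted p = 0.0065), and the alpha subunit Galphaq at 336 to 437 and 267 to 305 (log2 0.44, adjusted p = 0.0441, up to 0.133). The gene laza, a lipid phosphatase that acts on phosphatidic acid, was at 35.0 to 53.0 and 20.5 to 23.4 FPKM (log2 0.84, adjusted p = 0.0117). The protein kinase C gene Pkc53E was called (log2 0.43, adjusted p = 0.0229, up to 0.0705), while the eye-specific inaC, at 281 to 401 and 184 to 257 FPKM, had a log2 difference of 0.60 and an adjusted p of 0.0675. Genes of the rhabdomere, the light-sensing membrane stack, were called as well, prominin (prom) with 13.6 to 17.3 and 7.25 to 8.85 FPKM (log2 0.88, adjusted p = 0.00179), and chaoptin (chp) with 311 to 326 and 192 to 259 (log2 0.51, adjusted p = 0.0491, up to 0.132). inaF-B, a partner of the TRP channel that shares its transcript region with other inaF genes, was at 197 to 274 and 130 to 147 FPKM (log2 0.70, adjusted p = 0.0118), and the rhodopsin chaperone ninaA at 108 to 131 and 77.4 to 96.8 (log2 0.43, adjusted p = 0.0345, up to 0.0909). Calx and eys were called as well. The phospholipase C gene norpA lay toward dusk without overlap of the sides and was not called (log2 −0.25, adjusted p = 0.0949).

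The 4 dusk calls were 1 channel gene, 2 opsin genes and a carotenoid receptor gene. The channel gene trpl was at 311 and 325 FPKM at ZT20, 348 and 392 at ZT0, 587 and 595 at ZT8, and 620 and 576 at ZT12 (log2 −0.79 ± 0.09, adjusted p = 0.00307). The green-absorbing opsin gene Rh6 was at 340 to 434 FPKM at dawn and 566 to 665 at dusk (log2 −0.63, adjusted p = 0.0152, up to 0.0558), and the blue opsin gene Rh5 at 260 to 307 and 363 to 425 (log2 −0.53, adjusted p = 0.0201, up to 0.0684). The scavenger receptor santa-maria, needed for carotenoid uptake, was at 86.6 to 90.9 and 105 to 117 FPKM (log2 −0.34, adjusted p = 0.0219, up to 0.0765). The main opsin gene ninaE, the most abundant of these, was not called, with 7947 and 8868 FPKM at ZT20, 10654 and 10908 at ZT0, and 11578 to 13138 at dusk (log2 −0.38, adjusted p = 0.20), although its sides did not overlap. The opsin genes Rh2, Rh3, Rh4 and Rh7 and the channel gene trp (log2 −0.14, adjusted p = 0.324) were not called.

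Histamine is the transmitter of fly photoreceptors, and 3 genes of its synthesis and recycling, Hdc, t and b, were called higher at dawn. Hdc, the histidine decarboxylase that makes histamine, was at 10.2 to 11.5 FPKM at dawn and 4.93 to 7.12 at dusk (log2 0.74, adjusted p = 0.00713). The hydrolase gene tan (t), which frees histamine from its carcinine conjugate, was at 96.2 and 99.2 FPKM at ZT20, 162 and 165 at ZT0, 61.0 and 57.9 at ZT8, and 41.1 and 43.5 at ZT12. Its sides did not overlap (log2 1.32 ± 0.22, adjusted p = 0.0158, up to 0.0558 without the second-cycle ZT12 library). The gene black (b), which makes the beta-alanine used for that conjugate, was at 13.5 to 18.7 and 8.83 to 11.3 FPKM (log2 0.64, adjusted p = 0.0217, up to 0.0652). The gene ebony (e), which forms that conjugate, was not called (log2 −0.26, adjusted p = 0.312). The serotonin receptor gene 5-HT2A was higher at dusk, at 19.8 to 21.1 and 27.1 to 29.4 FPKM (log2 −0.47, adjusted p = 0.00359). These were the 4 called of 31 monoamine and histamine genes tested, beside 4.85% of all genes. The list median was −0.05.

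**Figure D3:**
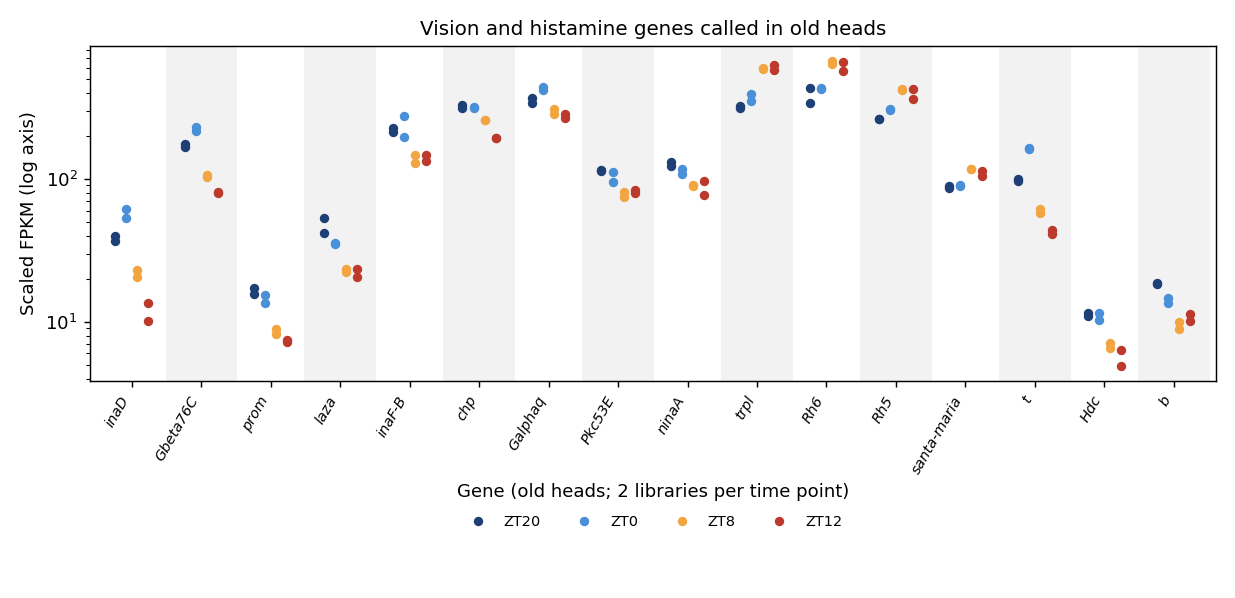
Scaled FPKM on a log axis of vision and histamine genes called in old heads, one point per library, coloured by zeitgeber time. From inaD to ninaA, and for t, Hdc and b, the blue dawn points lie above the orange and red dusk points, whereas trpl, Rh6, Rh5 and santa-maria are lower at dawn.

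Of 23 known or proposed clock output genes, 5 were called higher at dawn and 3 higher at dusk, beside 2.35% and 2.50% of all genes. The list median was −0.02. Besides Ugt35b, Hdc, ninaA, trpl and Rh5, already given, takeout (to), a secreted carrier protein linked to feeding, was at 28.9 to 46.3 FPKM at dawn and 21.4 to 22.8 at dusk (log2 0.82, adjusted p = 0.0158, up to 0.0533 without the second-cycle ZT8 library). Cyp6a21, a cytochrome P450, was at 7.56 to 8.80 and 3.08 to 4.75 FPKM (log2 0.83, adjusted p = 0.00769). The potassium channel regulator dysc was higher at dusk, at 75.1 to 84.3 compared with 49.6 to 63.6 FPKM (log2 −0.46, adjusted p = 0.026, up to 0.079).

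Genes that respond to neuronal firing were on the dusk side. Of 15 activity-regulated genes tested, 7 were called and all 7 were higher at dusk, beside 2.50% of all genes. The sides did not overlap in 11, again all higher at dusk (7.42% of all genes), and the median was −0.29. The orphan nuclear receptor Hr38, a marker of recent neuronal activity in insects, was at 3.74 and 3.01 FPKM at ZT20, 2.48 and 3.003 at ZT0, 16.99 and 18.3 at ZT8, and 13.7 and 15.2 at ZT12. No dawn library reached 4 FPKM and no dusk library fell below 13 (log2 −2.07 ± 0.12, adjusted p = 0.000111). CG14186 was at 27.4 to 30.5 and 55.2 to 60.1 FPKM (log2 −1.001, adjusted p = 0.000177), and CG30497 at 131 to 151 and 206 to 228 (log2 −0.57, adjusted p = 0.00607). Stripe (sr), the fly relative of the early growth response factors, was at 4.37 to 6.26 and 7.95 to 9.73 FPKM (log2 −0.64, adjusted p = 0.026, up to 0.0783), and kayak (kay), the fly Fos, at 44.4 to 46.2 and 53.9 to 59.2 (log2 −0.29, adjusted p = 0.0271, up to 0.0849). CG11221 and CG8910 were called as well. With unscaled values 4 of the 15 were called, all higher at dusk. Hr38 was also the only one called of 14 circadian-linked nuclear receptor genes (median −0.07), beside 4.85% of all genes. By span Hr38 overlaps CG2617 and 2 noncoding genes on the other strand.

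Of 26 chaperone genes tested, 4 heat shock protein genes were called, all higher at dusk, beside 2.50% of all genes. The list median was −0.12, and the sides did not overlap in 4 members with dusk higher and in 2 with dawn higher (7.42% and 6.97% of all genes). The mitochondrial small heat shock protein Hsp22 was at 153 and 117 FPKM at ZT20, 75.8 and 77.9 at ZT0, 320 and 299 at ZT8, and 457 and 469 at ZT12 (log2 −1.89 ± 0.25, adjusted p = 0.00691). Its lowest dusk library was above 290 FPKM and its highest dawn library at 153. By span Hsp22 overlaps CG4456 on the same strand. Hsp26, a cytosolic small heat shock protein whose gene lies 1454 bases from Hsp22 on chromosome arm 3L, was at 4.44 and 3.96 FPKM at ZT20, 4.49 and 6.96 at ZT0, 12.4 and 9.55 at ZT8, and 12.7 and 15.1 at ZT12 (log2 −1.18 ± 0.17, adjusted p = 0.0094). Of the inducible Hsp70 genes, the copies Hsp70Bb and Hsp70Bc were called at low levels of 2.93 to 3.66 and 5.11 to 5.27 FPKM, and of 0.75 to 1.80 and 2.36 to 3.64 FPKM (log2 −0.55, adjusted p = 0.00933, and log2 −0.86, adjusted p = 0.0327, up to 0.0987). Hsp70 copies are nearly identical and the way shared reads were split is uncertain. The abundant Hsp83, the fly Hsp90, was at 406 to 500 FPKM at dawn and 365 to 400 at dusk (log2 0.25, adjusted p = 0.154). It and the co-chaperone gene Cdc37 (log2 0.35, adjusted p = 0.156) were the 2 with dawn higher. With unscaled values the list held 4 dusk calls and 1 dawn call.

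Of 19 glycolysis genes tested, 3 were called, all higher at dusk, beside 2.50% of all genes. Of all, 17 of 19 log2 differences were negative, and the median was −0.19. Lactate dehydrogenase, ImpL3 (now Ldh), was at 21.7 and 15.1 FPKM at ZT20, 12.0 and 8.16 at ZT0, 31.9 and 31.3 at ZT8, and 45.9 and 67.5 at ZT12. The sides did not overlap (log2 −1.58 ± 0.32, adjusted p = 0.0298, up to 0.0776 without the first-cycle ZT12 library). Glucose-6-phosphate isomerase, Pgi, was at 382 to 418 and 552 to 596 FPKM (log2 −0.53, adjusted p = 0.00752), and the hexokinase Hex-A at 87.3 to 92.1 and 104 to 108 (log2 −0.23, adjusted p = 0.0491, up to 0.136). The abundant Gapdh2 was not called, with 785 to 818 FPKM at dawn and 964 to 1215 at dusk (log2 −0.40, adjusted p = 0.0558). With unscaled values 2 members were called and 6 of 19 log2 differences were positive. Of 14 hypoxia and FGF genes only ImpL3 was called (median −0.06), beside 4.85% of all genes. The FGF gene branchless (bnl) had a log2 difference of −0.64 with an adjusted p of 0.0929.

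Of 25 lipid storage and synthesis genes tested, 5 were called, all higher at dusk, beside 2.50% of all genes. The sides did not overlap in 11 with dusk higher and in 2 with dawn higher (7.42% and 6.97% of all genes), and the median was −0.21. Summed fat body markers were at 6553 to 8397 FPKM at dawn and 8387 to 10790 at dusk, none of the 5 was called, and their part in these differences was not tested. Fatty acid synthase, FASN1, was at 243 and 257 FPKM at ZT20, 238 and 259 at ZT0, 400 and 333 at ZT8, and 441 and 392 at ZT12 (log2 −0.64 ± 0.10, adjusted p = 0.0103). Acetyl-CoA carboxylase, ACC, which supplies its substrate, was at 73.5 to 91.2 and 103 to 122 FPKM (log2 −0.54, adjusted p = 0.0172, up to 0.0584), and the regulator of both, SREBP, at 59.5 to 69.96 and 82.3 to 96.1 (log2 −0.50, adjusted p = 0.0131). The triglyceride lipase brummer (bmm), which releases stored fat, was higher at dusk too, at 38.5 to 44.2 and 57.6 to 66.2 FPKM (log2 −0.58, adjusted p = 0.00567), as was the phosphatidate phosphatase Lpin (log2 −0.42, adjusted p = 0.0423, up to 0.119). Synthesis and release genes thus stood on the same side. With unscaled values 4 of the 25 were called, all higher at dusk, and 11 log2 differences were positive. Of 26 insulin, TOR and starvation genes only Sesn, a stress-responsive inhibitor of TOR, was called, beside 4.85% of all genes. None of the 26 was called with unscaled values. Sesn was at 46.8 to 52.8 and 60.3 to 68.2 FPKM (log2 −0.36, adjusted p = 0.023, up to 0.0787, list median −0.10).

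Of 62 cytochrome P450 genes, 2 were called at dawn and 3 at dusk, beside 2.35% and 2.50% of all genes (median −0.06). With unscaled values it was 5 at dawn and 3 at dusk. Cyp4aa1 was at 7.76 to 11.1 FPKM at dawn and 3.06 to 5.77 at dusk (log2 0.95, adjusted p = 0.0158, up to 0.0536), joining Cyp6a21. Cyp28d1 was at 108 to 167 and 213 to 252 FPKM (log2 −0.74, adjusted p = 0.0194, up to 0.0639), and Cyp6a13 at 16.9 to 21.7 and 26.7 to 28.2 (log2 −0.47, adjusted p = 0.0152, up to 0.0558). No glutathione S-transferase of 29 was called, beside 4.85% of all genes. The most abundant, GstE12, was at 731 to 815 and 880 to 952 FPKM (log2 −0.21, adjusted p = 0.171). Of 33 antioxidant and cnc-Keap1 genes only Gclm was called, beside 4.85% of all genes. None of the 33 was called with unscaled values. Gclm, the regulatory subunit of the enzyme that limits glutathione synthesis, was at 38.4 to 40.9 and 47.0 to 52.1 FPKM (log2 −0.32, adjusted p = 0.021, up to 0.0691, list median −0.11).

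The antimicrobial peptide genes varied too much between libraries to be compared with the same precision. Of 21 tested only IM2 (now BomS2), a short immune-induced peptide, was called, beside 4.85% of all genes. IM2 was at 402 and 369 FPKM at ZT20, 348 and 458 at ZT0, 668 and 686 at ZT8, and 873 and 661 at ZT12 (log2 −0.87 ± 0.13, adjusted p = 0.00922). The genes IM1 (now BomS1) and IM4 (now Dso1) lay the same way without a call. IM1 was at 149 to 289 and 292 to 409 FPKM (log2 −0.69, adjusted p = 0.115) and IM4 at 1135 to 1452 and 1714 to 3372 (log2 −0.73, adjusted p = 0.103). Other peptide genes had very wide ranges. Diptericin (Dpt) was at 5.89 and 503 FPKM in the 2 ZT20 libraries and at 1.81 to 75.5 in the other 6, and Cecropin A1 (CecA1) at 2.50 and 366 and at 2.44 to 40.7. Their log2 differences of 1.25 and 0.96 had standard errors of 1.38 and 1.37. Without the second-cycle ZT20 library, that of CecA1 was −0.36. Drosomycin (Drs) was not called either (log2 −0.24, adjusted p = 0.631).

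Genes of the mitochondrial ribosome were higher at dawn as a broad, shallow shift. Of 72 tested, 8 were called and all 8 were higher at dawn, beside 2.35% of all genes. The sides did not overlap in 21, all higher at dawn (6.97% of all genes), 67 of the 72 log2 differences were positive, and the median was 0.31 compared with 0.0040 over all genes. The small-subunit gene mRpS17 was at 16.6 and 16.8 FPKM at ZT20, 19.5 and 19.4 at ZT0, 11.7 and 11.6 at ZT8, and 12.5 and 13.1 at ZT12 (log2 0.53 ± 0.08, adjusted p = 0.00933). The large-subunit gene mRpL15 was at 5.68 to 6.57 and 3.79 to 4.09 FPKM (log2 0.55, adjusted p = 0.00614). mRpL11 and mRpS10 were at 3.53 to 4.78 and 1.73 to 3.02 FPKM, and at 7.77 to 10.99 and 4.13 to 6.59 (log2 0.69, adjusted p = 0.0301, up to 0.0853, and log2 0.66, adjusted p = 0.0346, up to 0.0882). mRpL46, mRpS9, mRpL24 and mRpL16 were called as well. With unscaled values 19 were called and the median was 0.40.

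Of 86 cytosolic ribosomal protein genes tested, 66 log2 differences were positive with a median of 0.09. Beside 2.35% of all genes, 2 of the 86 were called at dawn. These, RpLP0-like at 11.5 to 12.3 and 7.05 to 9.12 FPKM (log2 0.50, adjusted p = 0.0205, up to 0.0609) and RpL24-like at 77.5 to 102 and 57.8 to 73.6 (log2 0.47, adjusted p = 0.043, up to 0.116), are relatives of ribosomal proteins whose yeast counterparts act in the assembly of the large subunit and are not part of the finished ribosome. By span mRpL15 overlaps Psn, RpLP0-like overlaps Jra and RpL24-like overlaps Dtd on the other strand. Transcripts of the mitochondrial genome were variable, with log2 differences from −1.53 to 4.94 and no call among 29, beside 4.85% of all genes. The most abundant, mt:ATPase6, was at 24250 to 27696 and 26349 to 34472 FPKM (log2 −0.21, adjusted p = 0.521). The libraries were poly(A) selected, which catches mitochondrial transfer RNAs irregularly.

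Of 28 neuropeptide genes tested only Capa was called, beside 4.85% of all genes, a share at which a list of this length can hold a single call. Capa, which encodes the CAPA peptides of the central nervous system, was at 66.5 and 54.7 FPKM at ZT20, 57.9 and 65.1 at ZT0, 131 and 137 at ZT8, and 99.4 and 92.6 at ZT12 (log2 −0.89 ± 0.14, adjusted p = 0.0131). Its level at ZT4, 132 and 116 FPKM, was as high as at dusk. Single genes were called at dawn in further lists, beside 2.35% of all genes. They were to in 9 yolk and fat body secreted genes (median −0.16), Vha14-1, a subunit of the vacuolar proton pump, in 20 V-ATPase genes at 83.1 to 92.4 and 63.6 to 75.1 FPKM (log2 0.33, adjusted p = 0.0387, up to 0.108, median 0.11), and Obp19d in 25 odorant binding genes at 395 to 448 and 330 to 340 FPKM (log2 0.33, adjusted p = 0.0348, up to 0.109, median 0.19).

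Further lists held no called member, beside 4.85% of all genes, a share at which lists of these lengths can hold none. For 19 autophagy genes the median was 0.03, and Atg8a, which coats the forming autophagosome, was at 490 to 632 FPKM at dawn and 501 to 621 at dusk (log2 0.03, adjusted p = 0.924). For 35 proteasome genes it was 0.04, and the core subunit gene Prosalpha5 was at 145 and 141 FPKM at ZT20, 68.7 and 79.0 at ZT0 and 76.97 to 115 at dusk (log2 0.12, adjusted p = 0.835). For 18 cuticle protein genes it was 0.18, with Cpr65Au at 138 to 180 and 121 to 200 FPKM (log2 0.02, adjusted p = 0.963). For 28 muscle genes it was 0.05, with Act57B at 1002 to 1442 and 1180 to 1337 FPKM (log2 −0.11, adjusted p = 0.677). Without scaling the medians of the clock kinase, clock output, hypoxia, glutathione S-transferase, P450, insulin, neuropeptide, monoamine and nuclear receptor lists changed sign, and with upper quartile scaling that of the neuropeptide list did, so no direction is given for them. A missing call does not show that these genes stayed level, and Prosalpha5 and Act57B both moved between ZT20 and ZT0.

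**Figure D4:**
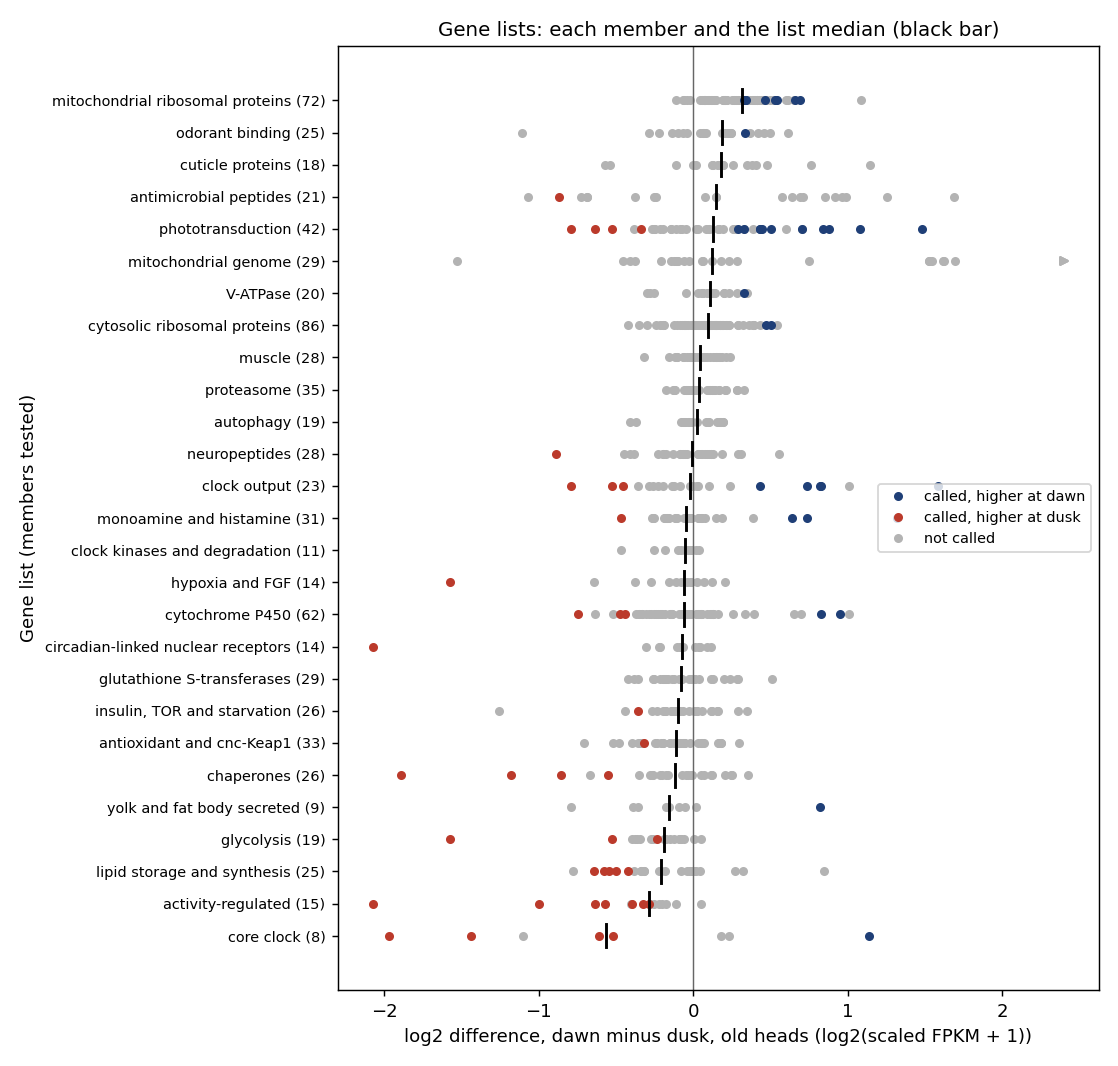
Log2 difference, dawn minus dusk, in old heads for every tested member of the 27 gene lists, with called genes in blue (dawn) and red (dusk), others in grey, the list median as a black bar and a triangle for a value beyond the axis. Mitochondrial ribosomal proteins have the highest median, 0.31, and core clock and activity-regulated genes the lowest, −0.57 and −0.29.

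The called genes were followed over all times of old heads, of which the comparison did not use ZT4 and ZT16. Which side was higher among the compared times was fixed by the call. Of the 226 dawn genes, the highest mean was at ZT0 in 117, at ZT20 in 80, at ZT16 in 25 and at ZT4 in 4. At ZT16 154 of the 226 were nearer to their dawn than to their dusk mean, and at ZT4 93 were. Of the 240 dusk genes the highest mean was at ZT12 in 114, at ZT8 in 88, at ZT4 in 35 and at ZT16 in 3. At ZT16 159 of the 240 were nearer to their dawn than to their dusk mean, and at ZT4 81 were. Some called genes were neighbours. Among tested genes next to each other within 2000 bases and without overlapping spans there were 28 pairs with both genes called, and in 23 of them (82.1%) both differed in the same direction, compared with 2559 of all 4828 such pairs (53.0%). Besides the dusk genes on 2L they included Hsp22 and Hsp26. Some pairs share a gene, as in the runs from CR45456 to Cks30A and from SLC5A11 to CG8419, so the pairs are not independent. The 28 pairs were picked by their calls and the 4828 were not, so the shares are not of like pairs. Reads that run across close neighbours could be counted to either gene, and their part in the 82.1% was not tested.

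The same contrast in young heads called 274 of 9394 genes (2.92%), 160 higher at dawn (1.70%) and 114 at dusk (1.21%). Old and young tables were normalised separately by the authors, so levels are set side by side here and only the dawn-dusk differences were tested against each other. By the limma interaction of age with side, 0 of 9549 genes (0%) were called for a change of the difference with age, and 452 genes (4.73%) had an unadjusted p of at most 0.05. With time of day as a factor 15 genes were called. For the core clock the differences in young heads were −1.66 for per, −1.12 for tim, −1.74 for vri, −0.42 for Pdp1, −0.84 for cwo, 0.95 for Clk, 0.31 for cyc and 0.16 for cry. The smallest unadjusted p for a change with age among these 8 was 0.0397, for cwo.

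The genes with the smallest p for that change are given in turn. The histamine-gated chloride channel gene ort, the receptor of the photoreceptor transmitter, was at 6.48 and 7.12 FPKM at ZT20, 7.39 and 9.06 at ZT0, 10.3 and 9.23 at ZT8, and 8.33 and 8.59 at ZT12 in old heads (log2 −0.25, adjusted p = 0.208). In young heads it was at 10.7 to 13.1 FPKM at dawn and 6.63 to 7.88 at dusk, without overlap (log2 0.61, adjusted p = 0.00877). The change was −0.86 ± 0.14 (SE, unadjusted p = 1.51e-05, adjusted p = 0.077, and 0.0119 with time of day as a factor). CG2017, which overlaps a noncoding gene on the other strand, was at 8.10 to 11.3 FPKM at dawn and 14.5 to 22.3 at dusk in old heads (log2 −0.79, adjusted p = 0.0216, up to 0.0621 without the second-cycle ZT0 library), and at 8.04 to 9.31 and 6.99 to 7.93 in young heads (change −1.03, adjusted p = 0.077, and 0.00888 with time of day as a factor). CG4962 overlapped between the sides in old heads, at 5.44 to 7.08 and 5.24 to 7.91 FPKM (log2 0.02, adjusted p = 0.954), and was higher at dusk in young heads, at 5.74 to 7.19 and 11.7 to 16.7 (change 1.01, adjusted p = 0.106).

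The remaining genes differed in size or sign. Usp8 had the smaller dawn-dusk difference in old heads, −1.80 compared with −2.76 (change 0.97, adjusted p = 0.126, and 0.0125 with time of day as a factor). Hsp26 overlapped between the sides in young heads, at 1.71 to 2.997 FPKM at dawn and 1.77 to 2.29 at dusk, with a difference of 0.06 (change −1.23, adjusted p = 0.162). Tep4, a complement-like gene of the immune system, was at 14.4 to 17.3 and 19.6 to 20.7 FPKM in old heads (log2 −0.38, adjusted p = 0.023, up to 0.0776 without the second-cycle ZT12 library) and at 6.44 to 9.38 and 5.74 to 6.91 in young heads (change −0.70, adjusted p = 0.196, and 0.012 with time of day as a factor). Some dusk genes of old heads were at a much lower level in the young table. Hsp22 was at 7.79 to 17.5 FPKM in the 8 young libraries and ImpL3 at 1.98 to 3.85, with young differences of −0.50 and −0.02 (change −1.38, adjusted p = 0.497, and −1.55, adjusted p = 0.526). Neither change passed the main test, and both passed with time of day as a factor (adjusted p = 0.031 and 0.0319). A low level compresses a difference on the log2(FPKM + 1) scale. In young heads ImpL3 overlapped between the sides in FPKM itself, at 2.11 to 3.54 at dawn and 1.98 to 3.85 at dusk, as did Hsp26.

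**Figure D5:**
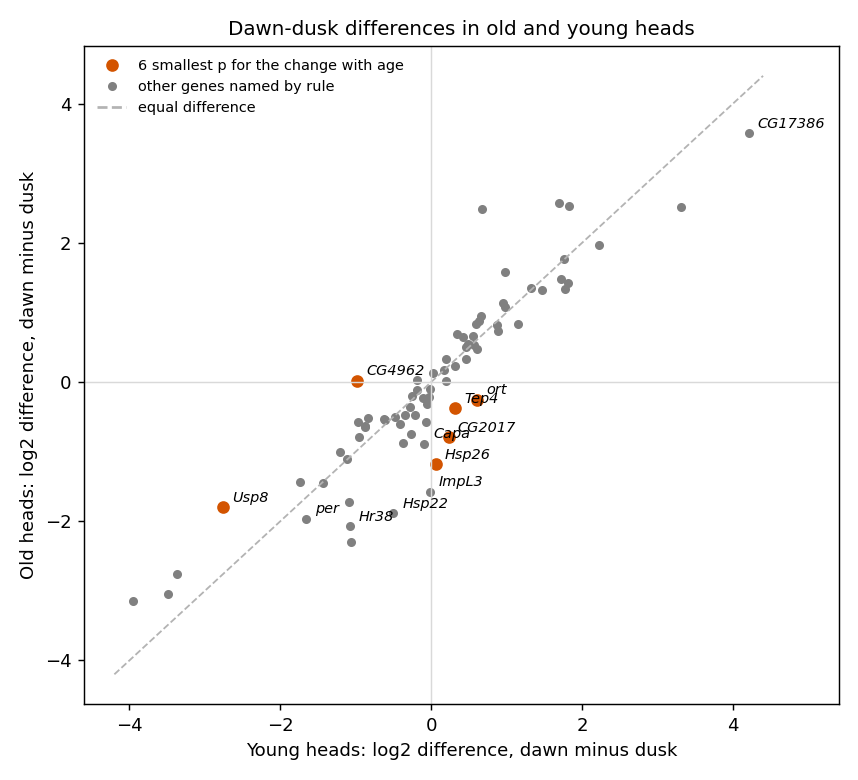
Log2 difference, dawn minus dusk, in old heads against the same difference in young heads for the 76 genes named by rule and tested at both ages, with the 6 genes of smallest p for the change with age in orange and the dashed line marking equal differences. The differences of per were −1.97 in old and −1.66 in young heads, those of Hsp26 −1.18 and 0.06, and those of ImpL3 −1.58 and −0.02.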

How the data were processed

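Heads of w1118 females were sequenced by the authors as poly(A)-selected, strand-specific paired-end libraries. Per the submitters' processing notes, reads were aligned with TopHat2 to dm6 (BDGP6) and the deposited FPKM values were made with Cuffdiff. Columns with the authors' rhythm statistics (p-values, periods, phases and amplitudes) were not used. The files hold no counts, so depth is unknown and no counting interval is given.

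Of 17637 genes, 236 microRNA hairpins were left out. FPKM of old heads was scaled by median of ratios over 9338 genes expressed in all 12 old libraries. Young FPKM was scaled likewise over the young libraries alone. Genes with a mean of at least 1 FPKM over the 8 libraries were tested on log2(scaled FPKM + 1) with limma 3.58.1 (empirical Bayes with trend, R 4.3.3), dawn against dusk, without further covariates, and p-values were adjusted by Benjamini-Hochberg. Spread within a side includes the difference between its 2 time points. The change with age was tested as the interaction of age with side over 16 libraries, scaled over all 24. Scripts were tested on simulated data.

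Named are all core clock genes, the 12 largest differences in each direction among called genes of at least 5 FPKM whose sides did not overlap, up to 4 called members of each list (or its most abundant member), and the 6 smallest p-values of the interaction. Rh6, Rh5, ninaE, Galphaq, chp, inaF-B, Pkc53E, ninaA, inaC, santa-maria, nmo, dysc, kay, Hsp83, Gapdh2, bnl, Lpin, IM1, IM4, Dpt, CecA1, Cks30A, norpA, trp, e, Drs, Cdc37, tws, genes given by name only, and all genes of the other observations were chosen after their values were seen. The comparison, its members and the gene lists were chosen with earlier results of these data known. Gene positions and current names are from the Ensembl BDGP6 annotation, which matched 17133 of 17401 gene IDs. Overlaps by span are not given above for every gene. For example, CG11891, prom, Galphaq and PRL-1 each overlap a gene on their own strand. Alternatives covered the pseudocount, the FPKM minimum, the scaling, the model and each library or time point left out.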

Additional observations from a re-analysis of the deposited data

Results flagged for a closer look

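Within a side of 4 libraries, one library of a gene named here stood apart from the other 3 by Dixon's criterion in 9 of 248 gene-by-side groups, and chance alone flags about 1 group in 20. At dawn, the first-cycle ZT0 library of CG17386 was at 29.4 FPKM beside 33.2 to 33.9 in the other dawn libraries, and the first-cycle ZT20 library of Rh6 at 340 beside 423 to 434. The same ZT20 library held mod at 97.1 FPKM beside 78.5 to 81.6. The second-cycle ZT20 library held Dpt at 503 FPKM beside 5.89 to 75.5 and CecA1 at 366 beside 2.50 to 23.7. At dusk, CG14186 was at 55.2 FPKM in the first-cycle ZT8 library beside 59.4 to 60.1, and IM2 at 873 in the first-cycle ZT12 library beside 661 to 686. The second-cycle ZT12 library held Act57B at 1180 FPKM beside 1315 to 1337 and PEK at 19.2 beside 16.5 to 16.6. The cause of these values was not tested.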

How the results depend on the processing

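The FPKM tables give no depth. The count of 466 called genes stayed within 1.5 times under another pseudocount, FPKM minimum, scaling or no trend, and without ZT0. It was 305 with the replicate block (daily cycle), 299 of them shared. Deviations of same-cycle libraries correlated from −0.23 to 0.10 over 15 pairs of time points, none over 0.1. Such correlations over all genes cannot show whether some genes share an effect of the cycle. The count was 1357 with time of day as a factor, 935 with all 12 old libraries and 1397 without ZT20. It was 98 without ZT8, 54 without ZT12, 96 at an adjusted p of at most 0.01 and 178 with at least 1.5-fold. Leaving out 1 library gave 157 to 459. For the change with age it was 15 with time of day as a factor, and 0 to 2 with 1 library left out. The scale difference was 0.0762 with upper quartile scaling.

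Among the genes named here, reversed signs were found only in genes without a call. A call from the same libraries makes a reversal unlikely beforehand. Without ZT0 cry was at −0.188, mts at 0.0176 (0.00231 unscaled), Atg8a at −0.144 and Act57B at 0.105. Without ZT12 cry was at −0.159, CG4962 at −0.134, Dpt at −0.00592 and CecA1 at −0.237. Without ZT8 Atg8a was at −0.0494, Prosalpha5 at −0.142 and Cpr65Au at −0.19. Without ZT20 Prosalpha5 was at −0.351, Cpr65Au at −0.126 and CG4962 at −0.00618. With 1 library left out the values ranged from −0.0354 to 0.0903 for Atg8a, −0.0406 to 0.315 for Prosalpha5, −0.103 to 0.137 for Cpr65Au, −0.0549 to 0.116 for CG4962 and −0.362 to 1.88 for CecA1. The cause was not tested.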

Other observations

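Other called genes of old heads, all named after their values were seen, are given as values. The transcription factor gene glass (gl), needed for photoreceptor identity, was at 15.7 to 19.6 FPKM at dawn and 12.3 to 14.1 at dusk (log2 0.39, limma adjusted p = 0.0346), and Pph13, which acts with it on rhodopsin genes, at 10.8 to 14.2 and 7.72 to 9.73 (log2 0.46, adjusted p = 0.036). Xport, a chaperone of TRP and rhodopsin, was at 164 to 207 and 75.2 to 115 FPKM (log2 1.01, adjusted p = 0.0122), and Cpn, a calcium-binding photoreceptor protein, at 87.8 to 99.8 and 49.5 to 60.3 (log2 0.74, adjusted p = 0.00319). Xport shares its transcript with Xport-B. The gene quasimodo (qsm), linked to light input into the clock, was at 35.9 to 63.5 and 23.6 to 31.6 FPKM (log2 0.81, adjusted p = 0.0321).

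The small nucleolar RNA-protein components nop5 and Nop56 were at 13.9 to 15.9 and 9.01 to 10.3 FPKM (log2 0.59, adjusted p = 0.00405) and at 18.4 to 20.9 and 13.3 to 15.1 (log2 0.43, adjusted p = 0.0127). The pseudouridine synthase Nop60B had a log2 difference of 0.51 (adjusted p = 0.0301), bys 0.51 (adjusted p = 0.0131) and modulo (mod) 0.42 (adjusted p = 0.0236). The citrate synthase gene kdn was at 115 to 149 FPKM at dawn and 65.0 to 81.9 at dusk (log2 0.79, adjusted p = 0.00763). MsrA (Eip71CD in the files), which repairs oxidised methionine, was at 93.3 to 129 and 41.6 to 66.1 FPKM (log2 0.93, adjusted p = 0.0207). Higher at dusk were Ire1 (log2 −0.36, adjusted p = 0.0103), PEK (log2 −0.44, adjusted p = 0.043) and Xbp1 (log2 −0.31, adjusted p = 0.0491). The phosphatase gene PRL-1 was at 223 to 393 FPKM at dawn and 600 to 721 at dusk (log2 −1.16, adjusted p = 0.00989), the ring-finger gene goliath (gol) at 34.4 to 39.5 and 87.5 to 107 (log2 −1.37, adjusted p = 0.000111), and the BMP-binding gene cv-2 at 11.8 to 14.4 and 26.1 to 29.4 (log2 −1.04, adjusted p = 0.000302). With a single library left out, the largest adjusted p was 0.139 for Xbp1 (without the second-cycle ZT8 library), 0.124 for PEK and 0.107 for gl (both without the second-cycle ZT12 library), 0.0954 for Pph13 and 0.0923 for qsm (both without the second-cycle ZT8 library), 0.0871 for Nop60B, 0.0705 for mod and 0.0547 for MsrA (without the first-cycle ZT12 library). The other genes of these 2 paragraphs kept their calls in all 8 such fits.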
